A study of Mus musculus with 8 samples.

Results

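Immediate early and activity-regulated genes are genes that cells transcribe soon after a stimulus, many of them without new protein synthesis. The 37 genes described here were chosen by name as known activity-induced genes of the mouse, and all 37 were found among the 15978 rows of the authors' deposited table, 1 row each. In neurons, calcium entry through glutamate receptors and voltage-gated channels activates kinases that act on transcription factors already bound at these genes, among them CREB at cyclic AMP response elements (CREs) and the serum response factor SRF at CArG boxes. Many early products, such as Fos and Egr1, are themselves transcription factors, while others, such as Arc, act at the synapse. Many of these RNAs are short-lived, and in brain they are widely used as markers of recent neuronal activity.

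The study compared 5 male mice that carried a bacterial artificial chromosome with the human C9ORF72 gene and 500 G4C2 repeats (C9-BAC) and 3 male wild-type (WT) mice, all on an SJL/Bl6 background. Expansion of this repeat causes amyotrophic lateral sclerosis and frontotemporal dementia. RNA came from brain, with no region, age, time of day or handling before death named in the labels, and the libraries, from total RNA, kept strand. The deposited values are 1 DESeq2 result per gene for the comparison of both genotypes, so levels in single mice were not analysed here and each mean is over the samples of both genotypes. The authors' deposited table does not say which genotype is the numerator, so a positive or negative sign is as deposited and does not say which of C9-BAC and WT mice was higher.

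No immediate early gene passed a DESeq2 adjusted p of 0.05 between C9-BAC and WT brain in the authors' deposited table, where 0% of all 15944 tested rows passed. A p-value was given for 35 of the 37 genes, and 1 of them, Tiparp, was under 0.05 before adjustment, while 1.50% of all tested rows in the authors' deposited table were. With the deposited statistic divided by its MAD-based SD, 2 of the 35, Tiparp and Rgs2, were under 0.05 before adjustment, beside 4.72% of all tested rows. The standard errors (SE) of these genes were often low for their abundance: 15 of 37 (40.5%) lay below the 10th percentile of the 500 rows nearest in mean count, against 9.84% of all rows. The 15 were Fos, Fosb, Junb, Maff, Egr2, Egr4, Nr4a3, Npas4, Csrnp1, Dusp5, Gadd45b, Ccn1, Arc, Nptx2 and Bdnf. Egr1 (percentile 17.6), Egr3 (16.0), Nr4a1 (57.2) and Homer1 (81.8) were not among them. Genes are not replicates, and this contrast with all rows is a description without a test.

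Most of these genes share a short promoter sequence that CREB recognises, and stretches that carry it are shown first because genes with and without it are compared further on. RefSeq promoter windows (GRCm38.p6, the assembly also called mm10) reach from 250 bases before a start site to 50 bases after it, and 30 of the 37 genes matched at least 1. Bases 200 to 51 before the start site of the window are printed 5′ to 3′ on the gene's strand. For Fosb that start site, 19310045, lies inside the gene span given further on, which reaches 19310118, so some printed bases do too. Capitals mark the full palindromic CRE (TGACGTCA), its core (TGACG on either strand, which the full CRE holds on each strand) and CArG boxes. Fos and Fosb are the AP-1 genes with the lowest SE percentiles, Dusp1 and Btg2 hold a full CRE, Dusp5 holds adjoining CArG boxes, and Tiparp, the gene of smallest p, holds none of these.
Fos, chr12:85473690-85473839, plus strand: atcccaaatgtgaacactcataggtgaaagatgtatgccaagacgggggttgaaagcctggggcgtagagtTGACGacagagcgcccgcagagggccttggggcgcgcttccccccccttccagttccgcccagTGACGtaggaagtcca
Fosb, chr7:19310096-19310245, minus strand: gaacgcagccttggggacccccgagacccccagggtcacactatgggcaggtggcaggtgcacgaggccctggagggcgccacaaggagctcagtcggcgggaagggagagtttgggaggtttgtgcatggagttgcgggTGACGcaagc
Dusp1, chr17:26508523-26508672, minus strand: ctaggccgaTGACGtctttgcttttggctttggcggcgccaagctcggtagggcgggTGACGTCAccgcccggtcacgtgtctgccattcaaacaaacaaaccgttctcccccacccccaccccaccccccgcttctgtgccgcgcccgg
Btg2, chr1:134079206-134079355, minus strand: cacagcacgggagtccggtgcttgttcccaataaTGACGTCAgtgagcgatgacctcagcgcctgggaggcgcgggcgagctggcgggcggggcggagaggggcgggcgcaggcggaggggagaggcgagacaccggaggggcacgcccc
Dusp5, chr19:53528945-53529094, plus strand: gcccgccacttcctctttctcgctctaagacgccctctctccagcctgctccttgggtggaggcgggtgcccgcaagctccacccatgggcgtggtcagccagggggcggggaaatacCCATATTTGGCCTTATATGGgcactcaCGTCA
Tiparp, chr3:65528247-65528396, plus strand: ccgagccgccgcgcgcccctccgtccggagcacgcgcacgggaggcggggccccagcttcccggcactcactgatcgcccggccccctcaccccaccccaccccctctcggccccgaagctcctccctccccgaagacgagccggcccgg

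The AP-1 genes encode leucine zipper proteins that pair as Fos and Jun dimers, and Maff encodes a small Maf protein that lacks an activation domain. Fos lies on chromosome 12 at 85473890 to 85477274, and the authors' deposited table gives it 198.9 mean normalized counts and a log2 fold change of -0.015 (SE 0.0651, p = 0.814, DESeq2 adjusted p = 0.9997). Its close relative Fosb, on chromosome 7 at 19302696 to 19310118, is listed in the authors' deposited table at 131.3 mean normalized counts and a log2 fold change of -0.039 (SE 0.0452), with no p-value. Both SEs were far below those of rows of like abundance, at percentiles 0.6 for Fos and 0.2 for Fosb, where the median SEs of those rows were 0.107 and 0.108. Jund and Jun stood at the other end. The authors' deposited table gives Jund 787.8 mean normalized counts and a log2 fold change of 0.099 (SE 0.110, percentile 97.0). Jun is listed in the authors' deposited table at 323.1 mean normalized counts and a log2 fold change of -0.033 (SE 0.110, percentile 94.2). Junb, at 495.4 mean normalized counts, had a log2 fold change of 0.0016 per the authors' deposited table, and its SE was at percentile 5.6. For Fosl2, which encodes the Fos relative Fra-2, the authors' deposited table gives -0.052 on the log2 scale, and for Maff, the least abundant of the 37 genes with 10.6 mean normalized counts, -0.0032. Of these 7 genes, 2 were positive and 5 negative as deposited (Junb was negative with the table's trend on GC content taken off), and the smallest unadjusted p that the authors' deposited table gives them was 0.367.

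The 4 Egr genes encode zinc finger transcription factors that bind GC-rich sites and act on later-response genes. Per the authors' deposited table, the log2 fold changes were 0.084 for Egr1, 0.053 for Egr2, -0.00085 for Egr3 and 0.013 for Egr4, the last of which was -0.019 with the trend on GC content taken off. Their abundance spanned a wide range, with 1229 mean normalized counts for Egr3, 923.2 for Egr1, 119.7 for Egr4 and 49.5 for Egr2 in the authors' deposited table. All 4 SEs lay in the lower part of their abundance range, at percentiles 17.6 for Egr1, 16.0 for Egr3, 4.6 for Egr2 and 1.8 for Egr4. The smallest p of the group was 0.341, for Egr1, per the authors' deposited table.

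The Nr4a genes encode orphan nuclear receptors that are active without a bound hormone. Nr4a1 (Nur77) is listed in the authors' deposited table at 370.1 mean normalized counts and a log2 fold change of 0.12 (SE 0.104, p = 0.241). For Nr4a2 (Nurr1), which also maintains midbrain dopamine neurons, the authors' deposited table gives 181.8 mean normalized counts and -0.054 on the log2 scale. For Nr4a3 (NOR-1), the authors' deposited table gives 47.6 mean normalized counts and 0.011 on the log2 scale. Signs differed within the family, and no difference between its genes was tested. Nr4a3 was the 1 of these 3 genes with an SE below the 10th percentile, at 8.0.

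Of the other transcriptional regulators, 8 of 9 had a positive sign, beside 47.4% of all rows in the authors' deposited table, and none had an unadjusted p under 0.05. With the trend on GC content taken off, Klf2 and Ier5 were negative as well. Npas4, a neuron-restricted factor induced by calcium entry that regulates inhibitory synapses, is listed in the authors' deposited table at 177.0 mean normalized counts and a log2 fold change of 0.087 (SE 0.0939, p = 0.353). Its SE was at percentile 1.4. Nfil3, a leucine zipper repressor gene, is listed at 65.7 mean normalized counts and 0.12 on the log2 scale per the authors' deposited table, and Klf4, a Krüppel-like zinc finger factor gene, at 18.1 and 0.10. Srf, whose product acts on many of the other genes, is listed at 570.7 mean normalized counts and 0.036 on the log2 scale per the authors' deposited table, and its SE was at percentile 98.6. For Klf2, a flow-responsive factor gene of endothelium, the authors' deposited table gives a log2 fold change of 0.0022 and for its relative Klf10 one of 0.020. For Ier2, Ier5 and Csrnp1 it gives 0.040, 0.0016 and -0.027 on the log2 scale, in that order. Csrnp1 was the 1 negative gene of this group, and its SE was at percentile 6.0.

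Genes that feed back on signalling held the fold changes next in size to that of Tiparp. Rgs2, on chromosome 1 at 143999338 to 144004149, encodes an inhibitor of G protein signalling and is listed in the authors' deposited table at 567.6 mean normalized counts and a log2 fold change of -0.16 (SE 0.101, p = 0.114, DESeq2 adjusted p = 0.9997). Dusp6, on chromosome 10 at 99263231 to 99267489, encodes a phosphatase of the kinase ERK and is listed in the authors' deposited table at 689.5 mean normalized counts and a log2 fold change of 0.15 (SE 0.107, p = 0.176). The signs of Rgs2 and Dusp6 were opposite, and their SEs were nearer to those of like rows, at percentiles 49.4 and 78.4. The nuclear phosphatase genes Dusp1 and Dusp5 were at 0.023 and 0.022 on the log2 scale per the authors' deposited table. Sik1, which encodes a kinase that restrains CREB coactivators, was at -0.0046 on the log2 scale per the authors' deposited table, and the kinase gene Pim1 at 0.051. No gene of this group had an unadjusted p under 0.05.

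Tiparp had the smallest p of the 37 genes and ranked 16th of the 15944 tested rows. It encodes a mono-ADP-ribosyltransferase that restrains the aryl hydrocarbon receptor, and lies on chromosome 3 at 65528447 to 65555518. The authors' deposited table gives it 179.2 mean normalized counts and a log2 fold change of -0.29 (SE 0.109, p = 0.0071, DESeq2 adjusted p = 0.9997), which is a ratio of 0.816. Its transcript GC content of 40.4% is well below the median of the table, and with the table's trend on GC content taken off, its deposited log2 fold change became -0.24 and its unadjusted p 0.0337. On the opposite strand a pseudogene, 4931440P22Rik, overlaps the 5′ end of Tiparp and is listed at 4.31 mean normalized counts in the authors' deposited table. Whether the counting used strand is not stated in the sources used here.

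Of the other growth and stress genes, Gadd45b, whose product binds stress-activated kinases, is listed in the authors' deposited table at 189.5 mean normalized counts and a log2 fold change of -0.066 (SE 0.0561, p = 0.241). None of the 500 rows of like abundance had a smaller SE than Gadd45b. The antiproliferative gene Btg2 was at 0.0092 on the log2 scale per the authors' deposited table, and Ccn1, which encodes a secreted matrix protein, at 0.059. Their SEs were at percentiles 88.4 for Btg2 and 8.6 for Ccn1.

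Among the synaptic and secreted effectors, Arc and Nptx2 were the most abundant of the 37 genes per transcript length. Arc, whose protein takes part in the removal of AMPA receptors from synapses, had 626 mean normalized counts per kilobase of its longest transcript, Nptx2 520, Homer1 457 and Bdnf 99.9. Of the other genes Jund was the highest on this scale, at 472, and Maff the lowest, at 5.40. Arc, on chromosome 15 at 74669081 to 74672570, is listed in the authors' deposited table at 1911 mean normalized counts and a log2 fold change of 0.032 (SE 0.0738, p = 0.664). Bdnf, which encodes the neurotrophin that signals through TrkB, is listed in the authors' deposited table at 426.1 mean normalized counts and a log2 fold change of -0.066 (SE 0.0761, p = 0.383). Nptx2, on chromosome 5 at 144545887 to 144557478, encodes a pentraxin that clusters AMPA receptors, and the authors' deposited table gives it 1320 mean normalized counts and a log2 fold change of -0.042 (SE 0.0504) with no p-value. These 3 genes had SEs at percentiles 2.4 for Arc, 0.4 for Bdnf and 0.2 for Nptx2. Homer1, a scaffold gene of the postsynapse, is listed in the authors' deposited table at 2613 mean normalized counts and -0.048 on the log2 scale, and its SE was at percentile 81.8. Its row pools 4 RefSeq transcripts and that of Bdnf pools 11, so the activity-induced short form of Homer1 and the separate promoters of Bdnf cannot be told apart from the constitutive forms.

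**Figure D1:**
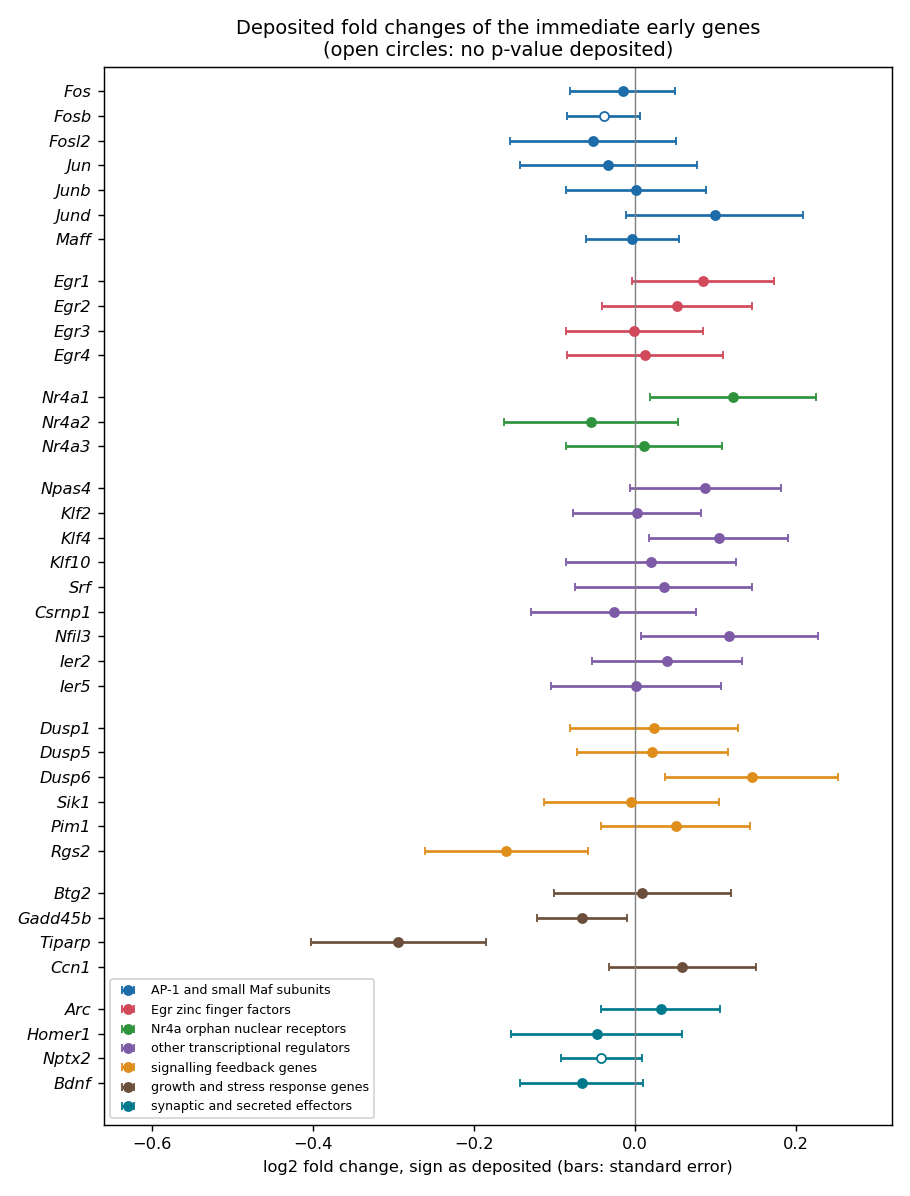
Deposited log2 fold changes (horizontal axis, sign as deposited) of the 37 genes by role, with bars for the standard error of each. Tiparp at -0.29 lies farthest from 0, 31 of the 37 genes are within 0.1 of 0, and the open circles of Fosb and Nptx2 mark rows without a p-value.

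Over the 37 genes, deposited ratios ran from 0.816 to 1.106, with 22 genes positive and 15 negative and a median log2 fold change of 0.0092, against -0.0044 over all rows of the authors' deposited table. With the trend on GC content taken off, 18 genes were positive and the median was -0.0057. A log2 fold change over 0.1 in size was listed for 6 of the 37 genes, beside 17.4% of all rows in the authors' deposited table. The 6 were Tiparp, Rgs2, Dusp6, Nr4a1, Nfil3 and Klf4. Every one of the 35 genes with a p had a DESeq2 adjusted p of 0.9997 per the authors' deposited table. The plot of fold changes by role shows both signs, as deposited, in each of the 7 roles.

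The SEs of the authors' deposited table had a ceiling of 0.110 and fell below it both toward low and toward high counts. DESeq2 gives SEs of this shape when a prior draws fold changes toward 0, although no source used here records that step. With such a prior, a small SE can belong to a fold change that the data estimate well or to one that they scarcely inform, so it is no measure of precision, and true differences can be larger than deposited ones. Rows under 10 mean normalized counts had a median SE of 0.0516. Far more abundant, Fosb (0.0452), Nptx2 (0.0504), Gadd45b (0.0561) and Fos (0.0651) had SEs close to that value. A low SE is therefore not to be read as a well-estimated fold change, and which case holds for each gene was not tested. Separately, DESeq2 by default leaves the p-value blank where a sample has an extreme count. The authors' deposited table has 34 rows (0.213%) without a p, Fosb and Nptx2 among them, and all 34 had SEs below the 10th percentile, with a median percentile of 0.4 and a highest one of 3.2. Among the genes with a p, Gadd45b, Bdnf, Fos, Npas4, Egr4 and Arc had percentiles in that same range. How far these genes varied from mouse to mouse was not analysed here, as the comparison is given as 1 value per gene.

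**Figure D2:**
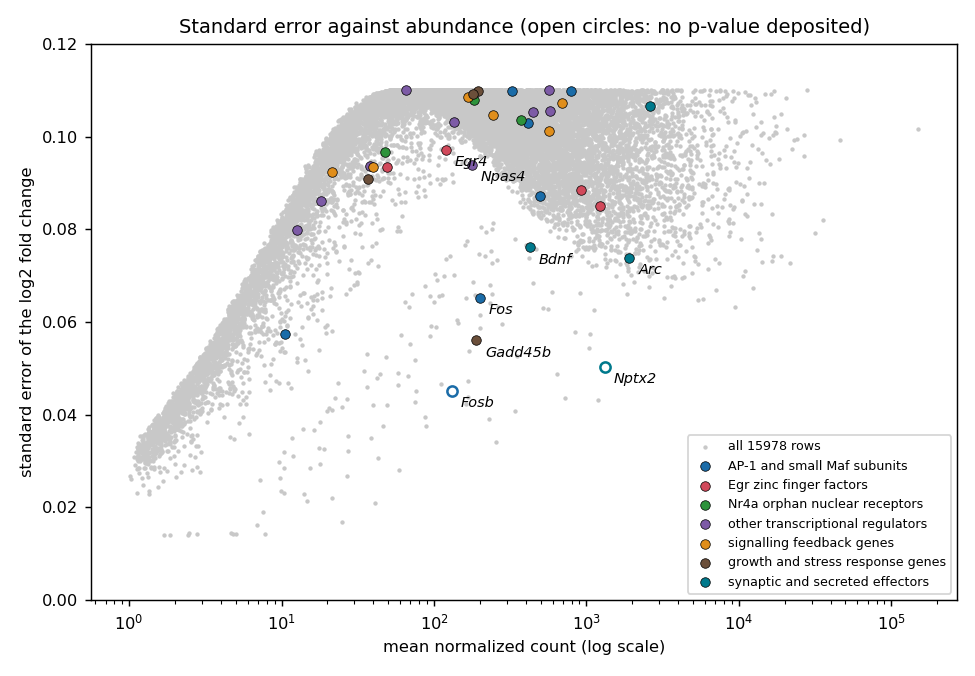
Standard error of the log2 fold change against the mean normalized count (log scale) for all 15978 rows in grey and the 37 genes coloured by role, with open circles for rows without a p-value. Fosb, Nptx2, Gadd45b, Fos, Bdnf and Arc lie below most rows of like abundance, while Jun, Jund, Srf, Btg2 and Nfil3 lie at the ceiling of 0.110.

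By role, an SE below the 10th percentile was found for 3 of the 4 synaptic and secreted effectors (median percentile 1.4) and 4 of the 7 AP-1 and small Maf genes (median 5.6). It was found for 2 of 4 Egr genes (median 10.3), 2 of 4 growth and stress genes (42.1) and 1 of 3 Nr4a genes (57.2). Of the other transcriptional regulators 2 of 9 were that low (28.6), and of the signalling feedback genes 1 of 6 (43.5). Over the 37 genes the median percentile was 26.0, against 50.4 for all rows.

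Other genes of the pathway were taken from a pair of lists, and no gene of either passed an adjusted p of 0.05. The upstream list holds receptors, calcium-dependent enzymes, the ERK cascade and the factors that bind immediate early promoters. All 38 were found, 24 positive and 14 negative with a median log2 fold change of 0.027, and 0 of them were under 0.05 before adjustment per the authors' deposited table. Grin2b, an NMDA receptor subunit gene, was at 0.13 on the log2 scale (SE 0.0714, p = 0.065), and Crtc2, a CREB coactivator gene, at 0.19 (SE 0.107, p = 0.0815), per the authors' deposited table. An SE below the 10th percentile was found for 2 of these 38 genes, Grin2b and Map2k1, and the median percentile was 56.7.

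The other list holds further activity-induced genes, of which 35 of 36 were found. Of these, 13 were positive and 22 negative with a median log2 fold change of -0.034, and 1 had an unadjusted p under 0.05, per the authors' deposited table. This was Atf3, a stress-induced leucine zipper factor gene, which the authors' deposited table lists at 7.56 mean normalized counts and -0.13 on the log2 scale (SE 0.0592, p = 0.028). Coq10b, a mitochondrial coenzyme Q gene, came next at -0.21 on the log2 scale (SE 0.107, p = 0.0505) per the authors' deposited table. An SE below the 10th percentile was found for 9 of the 35 (25.7%), among them Inhba, Gadd45g, Ptgs2 and Tamalin. The median percentile of the 35 was 43.4, against 50.4 for all rows. The authors' deposited table gives no p for 2 genes of this list, Cdkn1a and Baz1a.

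**Figure D3:**
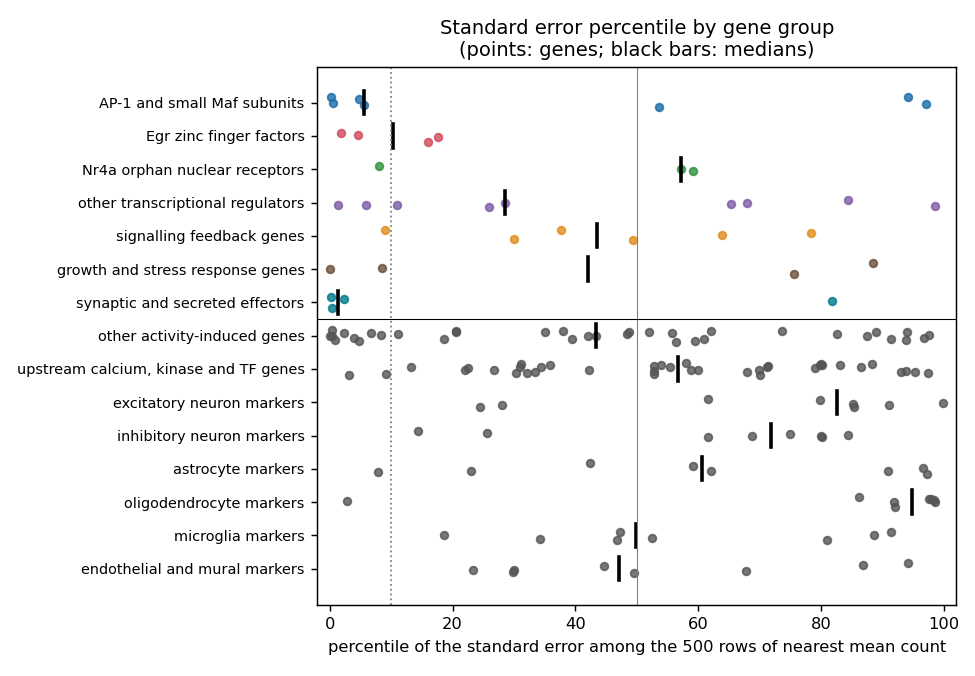
Percentile of each gene's standard error among the 500 rows of nearest mean count, with 1 point a gene and black bars for medians; the dotted line is the 10th percentile. The synaptic and secreted effectors (median 1.4) and AP-1 genes (median 5.6) lie left of the upstream genes (median 56.7) and of the cell type markers (median 71.9 over 48 genes). By cell type, marker medians run from 47.1 (endothelial and mural) to 94.8 (oligodendrocytes). Medians of the other roles are 10.3 (Egr), 28.6 (other transcriptional regulators), 42.1 (growth and stress), 43.5 (signalling feedback) and 57.2 (Nr4a). The other activity-induced genes have a median of 43.4.

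Markers of brain cell types were set beside these values because immediate early genes are also induced in glia and vessels. All 48 markers were found, at 37.02 to 11387 mean normalized counts in the authors' deposited table, so that each cell type was represented. An SE below the 10th percentile was found for 2 of the 48 markers, Mog and Gja1, and the median percentile was 71.9. By type the median percentile was 94.8 for oligodendrocytes, 82.5 for excitatory neurons, 71.9 for inhibitory neurons and 60.6 for astrocytes. It was 49.8 for microglia and 47.1 for endothelial and mural cells, near the 50.4 of all rows. On the log2 scale, the authors' deposited table gives -0.19 for the inhibitory neuron genes Gad2 (p = 0.0631) and Gad1 (p = 0.0694), and 0.17 for the endothelial gene Pecam1 (p = 0.0954). Of the 8 inhibitory neuron markers, 5 were negative and 3 positive as deposited, the latter with Sst at 0.088. Elsewhere the log2 values of smallest p in the authors' deposited table were those of Slc17a6 (-0.15) and Nrgn (0.13) in excitatory neurons, Slc4a4 (-0.13) and Aldh1l1 (0.093) in astrocytes, and Mog (0.14) and Mal (-0.11) in oligodendrocytes. The microglial gene Aif1 was at -0.13 and the endothelial gene Cldn5 at 0.12 on the log2 scale of the authors' deposited table. Median log2 fold changes by type were 0.035 for excitatory neurons, -0.0074 for inhibitory neurons, -0.044 for astrocytes, -0.026 for oligodendrocytes, -0.015 for microglia and 0.052 for endothelial and mural cells, per the authors' deposited table. In bulk brain RNA, fewer cells of a type and less RNA per cell cannot be told apart, and the part of cell makeup in the values of the immediate early genes was not tested. Mouse C9orf72, the endogenous gene of the repeat locus, was at -0.075 on the log2 scale (SE 0.101, p = 0.454) per the authors' deposited table.

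The immediate early genes are short, with a median gene length of 5339 bases against 23722 bases for all rows with a RefSeq gene. Their transcripts had a median GC content of 54.9%, against 50.3% for all rows. Spearman's rho between the statistic of the authors' deposited table and transcript GC content was 0.276 over the 37 genes and 0.372 over 15869 rows, which share the same 8 libraries and are not independent. Of the 28 genes at or above the table's median GC content 18 were positive, and of the 9 below it 4 were positive.

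The CRE core was present in at least 1 promoter window of 22 of the 30 genes with a window (73.3%), against 23.0% of 27025 genes in the RefSeq promoter set. That set also holds genes that are not rows of the authors' deposited table. Of the rows with a window, 4145 held the core and 8418 did not, a larger share than in the whole set. Genes with several start sites have more windows to hold a motif, so the count was repeated on genes with 1 window each, where 17 of 24 (70.8%) held the core, against 20.6% of 22862. The full CRE was found in 2 of these 24 (8.33%, against 1.85%), and so was the CArG box (8.33%, against 1.53%). The TATA box (TATAAA on either strand) was found in 6 of the 24 (25.0%, against 14.8%) and the AP-1 site (TGANTCA) in 0, against 7.98%. Among genes with several windows, Maff held a full CRE and Egr2 a CArG box. A match shows only that the letters are there, and the windows leave out sites farther away.

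**Figure D4:**
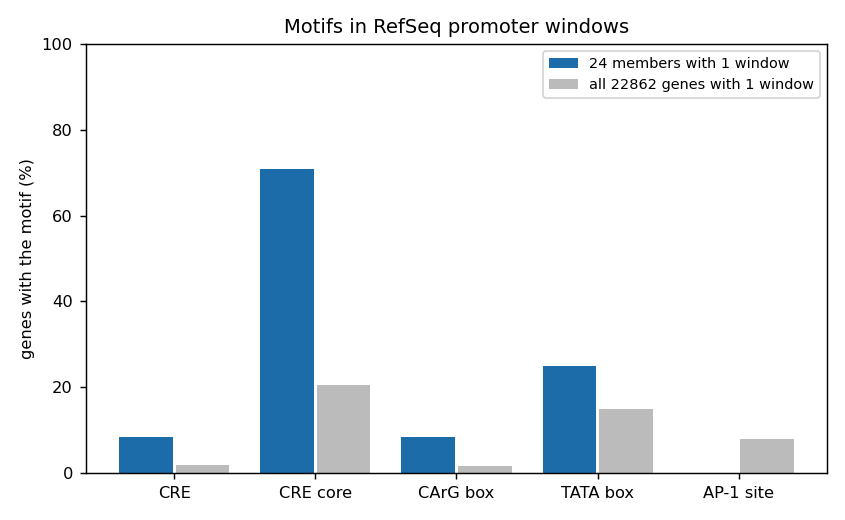
Share of genes (vertical axis, percent) whose promoter window holds each motif, for the 24 immediate early genes with 1 window in blue and all 22862 genes with 1 window in grey. The CRE core is found in 70.8% of the blue group and 20.6% of the grey group.

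SE percentiles were also set beside the motifs within the group. The 22 genes with the core had a median percentile of 8.8, and 12 of them (54.5%) were below the 10th percentile, while the 8 genes without it had a median of 71.8 and 1 of them, Gadd45b, was below. Over all rows with a promoter window the core went with no such gap: the median percentile was 49.6 for 4145 rows with the core and 50.4 for 8418 rows without it. The other motifs were held by few genes: the median percentile was 7.1 for the 6 genes with a TATA box against 33.8 for the 24 without it, 9.0 for the 3 with a CArG box against 30 for the 27 without it, and 3.2 for the 2 with an AP-1 site against 33.8 for the 28 without it. For the full CRE the order was the other way, with 37.6 for the 3 genes that hold it and 28.6 for the 27 without it. These splits were chosen after the values were seen, and no test was made of them. They count a motif in any window and were not repeated on genes with 1 window each. The 7 genes without a window are in neither part of these splits. They are Nptx2 (percentile 0.2), Arc (2.4), Ier2 (11.0), Egr3 (16.0), Egr1 (17.6), Sik1 (63.8) and Klf10 (65.4). Of the genes with the core, Bdnf (percentile 0.4), Egr2 (4.6), Maff (4.8), Csrnp1 (6.0) and Homer1 (81.8) have several windows. Genes with the core whose percentile was above 50 were Srf (98.6), Btg2 (88.4), Nfil3 (84.4), Homer1 (81.8), Nr4a2 (59.2) and Nr4a1 (57.2). Median log2 fold changes were 0.010 for the 22 genes with the core and -0.016 for the 8 genes without it, per the authors' deposited table.

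**Figure D5:**
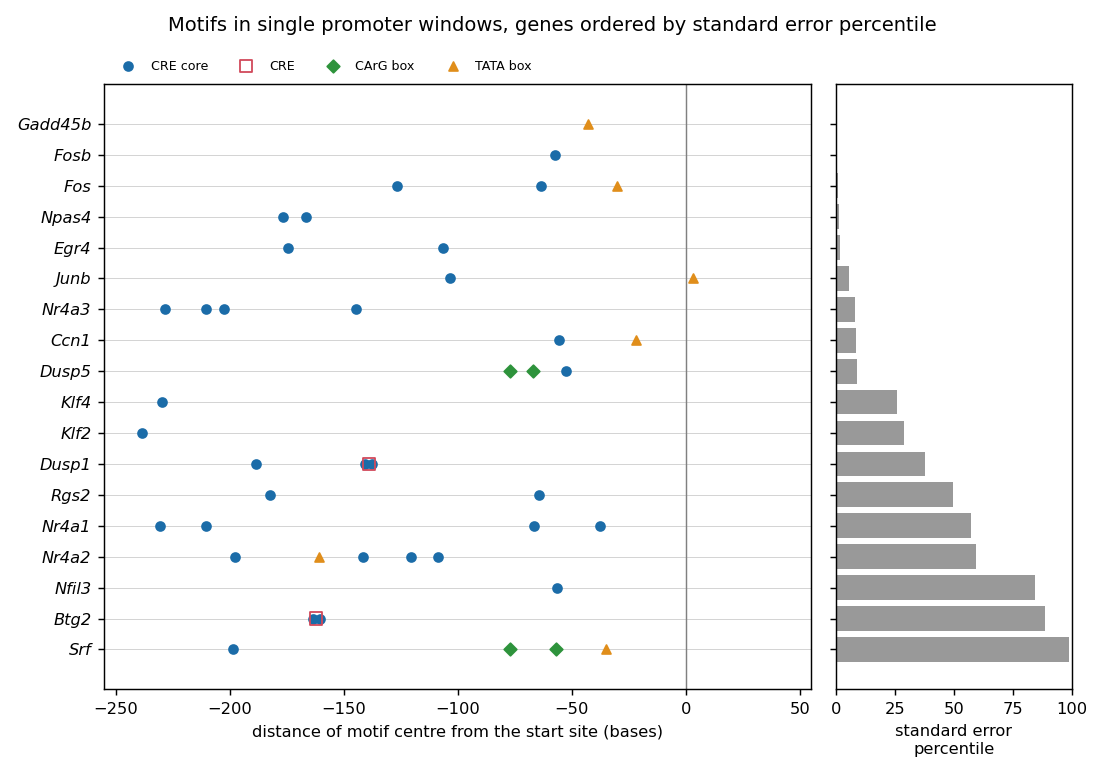
Positions of motif centres relative to the start site (bases, left) in the 18 genes with a single window and at least 1 of the motifs, ordered from top to bottom by the percentile of the standard error (bars, right). Gadd45b, the top gene at percentile 0.0, holds a TATA box and no CRE core. Fosb, Fos, Npas4 and Egr4, with percentiles of 0.2 to 1.8, hold 1 or 2 CRE cores each upstream of the start site, and Srf and Btg2 hold CRE cores at percentiles of 98.6 and 88.4.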

How the data were processed

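Brain RNA of 5 C9-BAC and 3 WT mice was sequenced, each sample taken as 1 mouse; where samples are not separate animals, p-values measure technical spread. The submitters' processing notes name Trimmomatic and Bowtie2, then DESeq with DESeq2 used by the authors, and build mm10; no source used here gives the read counter, gene annotation or filters. Per the file headers, the authors deposited the mean normalized count (a signal averaged over all samples), a fold change with its standard error, both on the log2 scale, the Wald statistic (a score), the p-value and its adjusted p-value. Every row fitted these definitions (adjusted p to within 5.3e-12 of a Benjamini-Hochberg adjustment). The mean normalized counts sum to 9226666; the depth of each library was not analysed here.

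Symbols came from RefSeq accessions (GRCm38.p6) for 15857 rows and GENCODE vM21 for 73, leaving 48 unnamed. Transcript GC content (99.3% of rows) and length are of the longest GENCODE transcript a row names. The percentile of a standard error is its rank among the 500 rows nearest in log mean count. Alternatives were a statistic divided by its MAD-based SD (0.789 over tested rows with a mean count of at least 10), a lowess trend on GC content (fraction 0.3), and minimum mean counts of 10 and 100 (Python 3.11.15, statsmodels 0.14.6). The trend and adjustment were tested on simulated data. The genes, lists and alternatives were chosen with earlier results of these data known; all 37 genes are named, with the 2 genes of smallest p in each other list, mouse C9orf72, and genes singled out for a low standard error after values were seen. The result of 1 marker gene is not reported here.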

Additional observations from a re-analysis of the deposited data

How the results depend on the processing

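The count of immediate early genes past an adjusted p of 0.05 was 0 as deposited and under each of the 5 alternatives run (lowest adjusted p 0.585, for Tiparp with the statistic divided by its SD). With that division, 2 genes were under 0.05 before adjustment, Tiparp and Rgs2, against 1 in the authors' deposited table. Rgs2 was at -0.12 on the log2 scale with the GC trend taken off, and the Wald statistic so adjusted gave an unadjusted p of 0.233. Positive genes were 13 of 27 at a minimum mean count of 100, where the median log2 fold change was -0.00085. The median percentile of the standard error was 25.5 with 200 and 38.9 with 2000 nearest rows, which span a wider range of abundance. With the GC trend taken off, 6 of 37 genes changed sign: Junb (-0.032), Egr4 (-0.019), Klf2 (-0.031), Ier5 (-0.0094), Dusp5 (-0.0057) and Homer1 (0.025); the median was -0.0057, and 18 genes were positive. Leaving out single mice was not run, since no value per mouse was used. No paired analysis was possible because the genotypes share no replicate numbers and the table has no column per mouse.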
